A study of Mus musculus with 2 samples.

Results

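The aminoacyl-tRNA synthetase genes of mouse growth plate cartilage were followed across chondrocyte zones. Members were chosen by name alone, as the probe sets of the array whose only gene symbol was that of 1 of 20 cytosolic or 16 mitochondrial synthetases, the latter with symbols ending in 2. Of these 36 genes, 35 had such a probe set, among 18193 named genes on the array, and Dars is not analysed here. Both arrays carried RNA from wild-type C57BL/6J E17.5 embryos, from cartilage enriched in round chondrocytes (the Round array) or in columnar and hypertrophic chondrocytes (the Columnar/Hypertrophic array). For each array, RNA from 3 cartilage plate portions was mixed, so each group was 1 array with no replicate, no test was possible, and precision is limited by having so few arrays. All groups were unmodified animals, and the portions were enriched for a zone and not sorted, so they hold other cells of the plate.

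Aminoacyl-tRNA synthetases join each amino acid to its tRNA, and every codon read by a ribosome depends on them. One set of nuclear genes serves the cytosol and a second set, made in the cytosol and imported, serves the protein synthesis of mitochondria. Several cytosolic enzymes are held in the multisynthetase complex, built on the scaffold proteins of Aimp1, Aimp2 and Eef1e1. In many cell types the transcription factor ATF4, whose translation is favoured when eIF2α is phosphorylated, induces genes of amino acid supply together with many of the cytosolic synthetase genes.

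Values are MAS5 signals, a linear intensity for each probe set, and differences are log2 values of the Columnar/Hypertrophic array minus the Round array, and a positive difference means more signal in Columnar/Hypertrophic. The brightest probe set stood for each gene. A floor of 100.5, the 95th percentile of 87 probe sets for chemosensory receptor genes, marked signals too dim to read. The technical spread was the SD of the log2 difference between probe sets of 1 gene, 0.37 over 4825 genes. It is not a spread between animals or between arrays. The median signal was 128 and 105, and 11703 genes lay above the floor on at least 1 array. A signal 2-fold or more higher in Columnar/Hypertrophic was seen for 504 of them (4.31%), and one 2-fold or more lower for 745 (6.37%). At 1.5-fold the counts were 1372 higher (11.7%) and 1848 lower (15.8%). The median difference of all 11703 genes was -0.05, and 45.1% of them lay above 0.

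Zone markers went with the labels. Of 8 measured markers of prehypertrophic and hypertrophic cells, 7 were higher in Columnar/Hypertrophic by 2-fold or more, and 6 of 6 measured markers of round, resting and periarticular cells were at least 2-fold lower. The 5 chondrocyte markers differed by -0.12 to 0.36. Perichondrium, fibroblast and tendon markers were lower in Columnar/Hypertrophic, with 6 of 7 measured genes at least 2-fold lower and a summed signal of 83278 against 26207. Of the tendon genes, Scx lay under the floor on both arrays. Tnmd had a signal of 311 in Round and lay under the floor in Columnar/Hypertrophic (35.8). All 7 markers of blood, endothelium and muscle lay under the floor. Of the macrophage and osteoclast markers, Ptprc and Acp5 lay under the floor, Csf1r differed by -0.56 and Ctsk by -0.62. Sp7 went from 170 to 1940, the only 1 of 2 listed osteoblast markers with a usable probe set. Which cells gave the Sp7 signal was not tested. The part of this fibrous tissue in the differences below was not tested, and fewer cells of a type cannot be told apart from less RNA per cell.

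Of the 35 synthetase genes with a probe set, 34 lay above the floor on both arrays. Mars2, the mitochondrial methionine enzyme, was under it on both (4.82 and 38.0) and gives no difference. The cytosolic genes as a group had higher signals in Columnar/Hypertrophic, with 18 of 19 above 0, a median of 0.50 and a range from -0.06 to 1.20. The mitochondrial genes were split, with 7 of 15 above 0, a median of -0.16 and a range from -0.63 to 0.63. At least 1.5-fold higher were 7 of 19 cytosolic genes (36.8%) and 1 of 15 mitochondrial genes (6.67%), against 11.7% of all genes. At least 2-fold higher were 2 of the 34 members (5.88%), close to the 4.31% of all genes, and 0 were at least 2-fold lower.

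**Figure D1:**
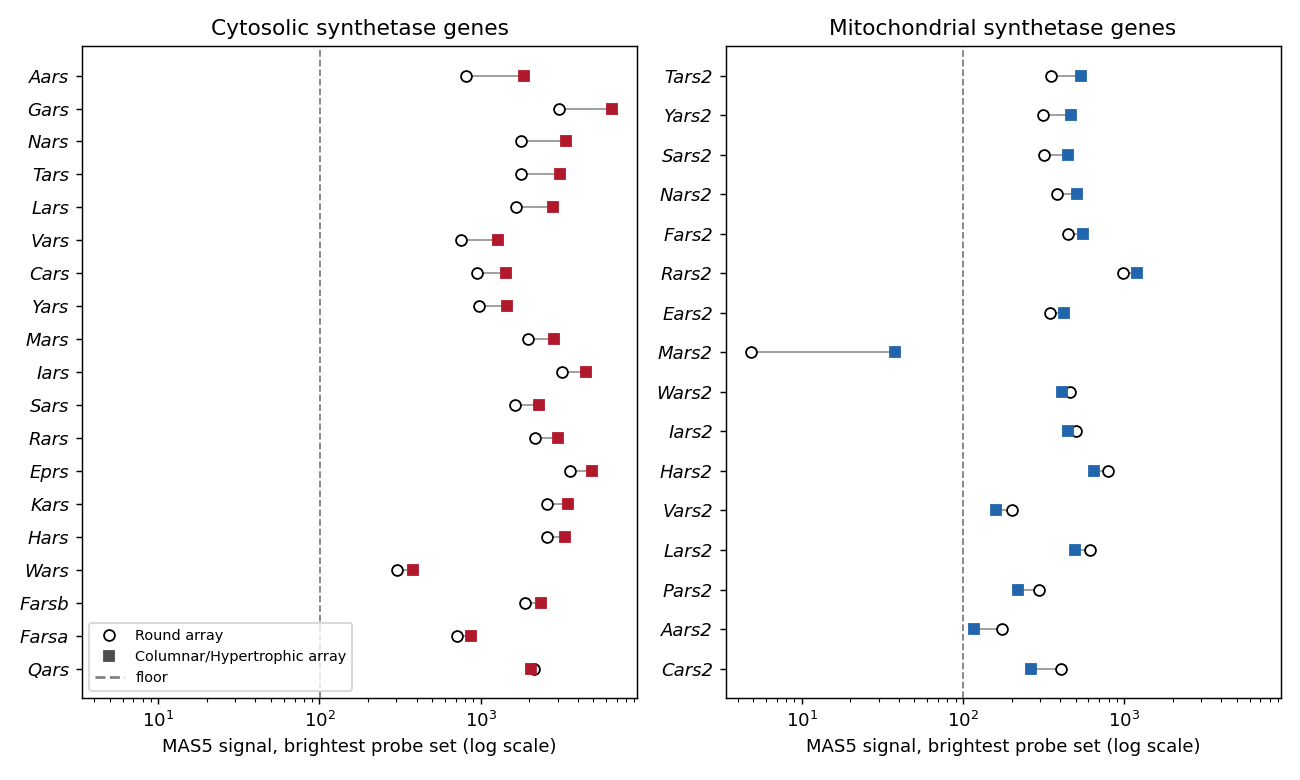
MAS5 signal (horizontal, log scale) of the brightest probe set of each of 35 synthetase genes in Round (open circles) and Columnar/Hypertrophic (filled squares), where a dashed line marks the floor of 100.5 and each group is 1 array. For 18 of 19 cytosolic genes the square lies to the right of the circle, while the 15 measured mitochondrial genes go both ways and Mars2 lies under the floor.

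The largest cytosolic differences belonged to the alanine and glycine enzymes. Aars, which encodes alanyl-tRNA synthetase, had signals of 813 in Round and 1870 in Columnar/Hypertrophic, a 2.30-fold difference. Its second probe set gave 616 and 1259 (1.03 on the log2 scale), and 338 of the 11703 genes had a larger difference than its brightest one. Gars, which charges glycine tRNA in both the cytosol and the mitochondria and so serves the most frequent residue of collagens, went from 3071 to 6506, or 2.12-fold higher by its only probe set. Both differences were over 2 times the technical SD, which leaves out variation between arrays.

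Nars, the asparagine enzyme gene, followed with 1782 and 3404 (0.93), although its other probe set gave a smaller difference of 0.49. The threonine enzyme gene Tars went from 1774 to 3106 (0.81). Lars, for leucine, had signals of 1654 and 2817 (0.77), and Vars, for valine, 759 and 1281 (0.76). These 4 genes completed the 6 cytosolic members whose difference was over 2 times the technical SD. None of the mitochondrial members reached that size.

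A middle group of cytosolic genes lay between 0.44 and 0.59, above the technical SD of a single probe set but under its double. Cars, the cysteine enzyme gene, went from 951 to 1429 (0.59). Yars, for tyrosine, went from 980 to 1451 (0.57), Mars, for methionine, from 1967 to 2835 (0.53), and Iars, for isoleucine, from 3186 to 4508 (0.50). Sars, the serine enzyme gene, had signals of 1633 and 2310 (0.50), and its second probe set gave 0.55. Rars, for arginine, went from 2169 to 3002 (0.47) and Kars, whose lysine enzyme works in both compartments, from 2586 to 3500 (0.44). In all of these the Columnar/Hypertrophic array had the higher signal.

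Eprs, the gene of the enzyme that joins both glutamate and proline to their tRNAs, was measured by 4 probe sets. Its brightest went from 3587 to 4883 (0.45), and others gave 0.84 and 0.71. The dimmest, with signals of 361 and 349, gave -0.05, so the size of the Eprs difference depended on the probe set.

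The smallest cytosolic differences were those of histidine, tryptophan, phenylalanine and glutamine. Hars went from 2574 to 3339 (0.38). Wars, the tryptophan enzyme gene, had signals of 301 and 380 (0.34), and 2 further probe sets above the floor gave 0.22 and 0.25. Farsb and Farsa, encoding the subunits of the phenylalanine enzyme, differed by 0.33 and 0.30. Qars, the glutamine enzyme gene, was the single cytosolic member with a lower signal in Columnar/Hypertrophic, by a margin within the technical spread (2145 and 2054, or -0.06). The 4 Qars probe sets gave -0.06, -0.11, -0.02 and, for the dimmest at 154 and 102, -0.60.

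Counted by probe set, 30 of the 35 cytosolic ones with both signals above the floor were higher in Columnar/Hypertrophic. Of the 5 lower ones, 4 were those of Qars and the other was the dim Eprs probe set. Where a cytosolic gene had a second brightest probe set that could be read, it was higher in 9 of 10 genes. For the mitochondrial genes, 12 probe sets were higher and 13 lower.

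**Figure D2:**
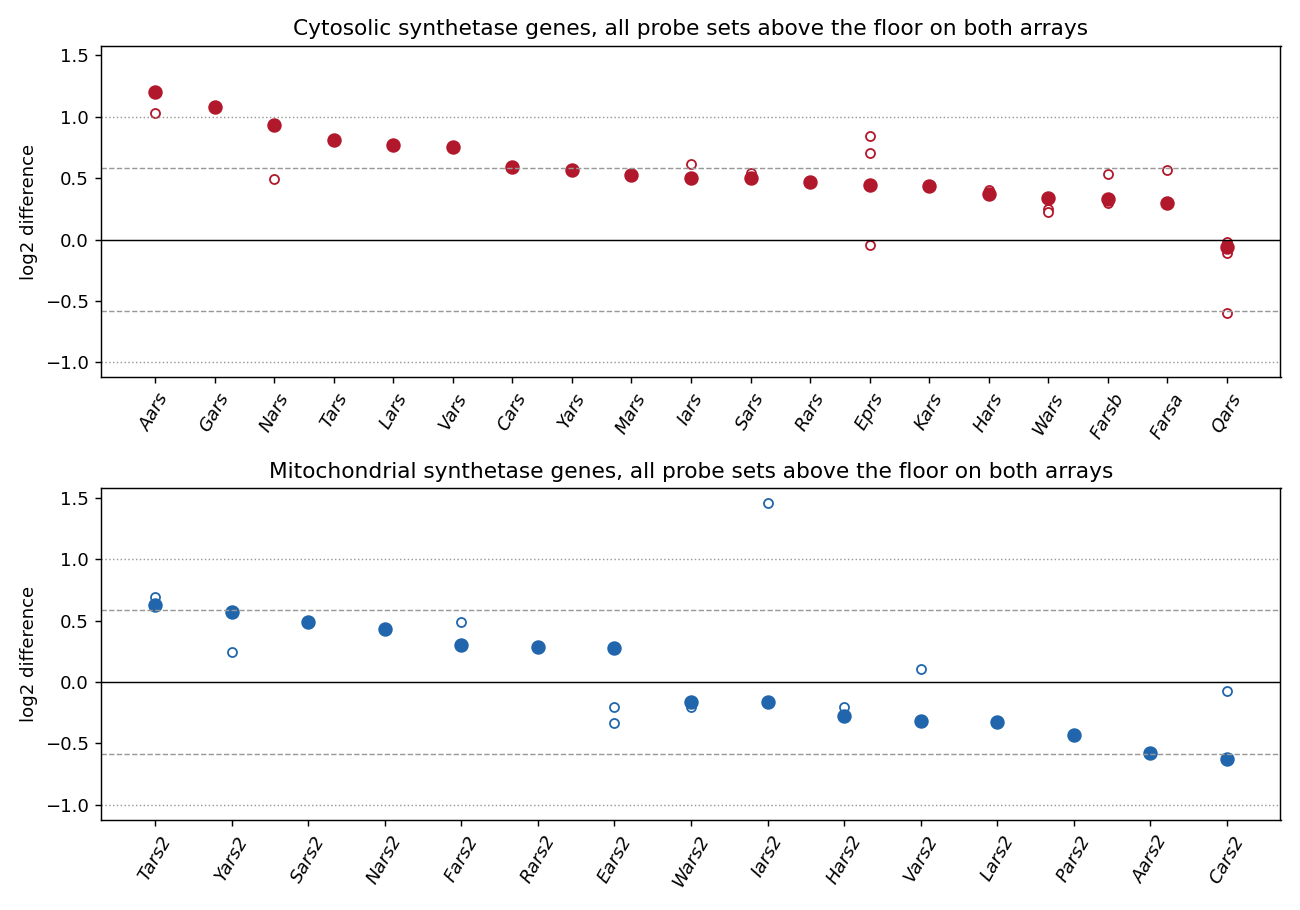
Log2 difference (Columnar/Hypertrophic minus Round, vertical) of every probe set with both signals above the floor, by gene, for cytosolic (upper panel) and mitochondrial (lower panel) synthetases; filled points are the brightest probe sets, open points the others, dashed lines 1.5-fold and dotted lines 2-fold. Cytosolic points lie above 0 except those of Qars and 1 of Eprs, and the open Iars2 point at 1.45 is a dim probe set.

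By their brightest probe sets, no mitochondrial gene lay between -0.16 and 0.28. This gap depended on the choice of probe set, since second probe sets gave 0.24 for Yars2, 0.10 for Vars2 and -0.07 for Cars2. On the higher side, Tars2, the threonine enzyme gene, went from 350 to 542 (0.63, or 1.55-fold), with 0.69 by its other probe set. Yars2, for tyrosine, went from 312 to 465 (0.57, and 0.24 by its other probe set), and Sars2, for serine, from 318 to 447 (0.49). Nars2, for asparagine, had signals of 381 and 513 (0.43). Fars2, Rars2 and Ears2, for phenylalanine, arginine and glutamate, differed by 0.30, 0.29 and 0.28, and 2 other Ears2 probe sets gave -0.33 and -0.20. Ears2 therefore had no settled direction.

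On the lower side, Cars2, the cysteine enzyme gene, went from 406 to 263, or 1.54-fold lower, and was the only one of the 34 members at least 1.5-fold lower, against 15.8% of all genes. Its second probe set, at 237 and 226, gave -0.07. Aars2, for alanine, had signals of 175 and 117 (-0.58), the latter close to the floor, and Pars2, for proline, 295 and 219 (-0.43). Lars2 (-0.32), Vars2 (-0.31) and Hars2 (-0.28), for leucine, valine and histidine, were lower by less than the technical SD, and Vars2 gave 0.10 by its other probe set. Iars2, for isoleucine, and Wars2, for tryptophan, both differed by -0.16. A second Iars2 probe set went from 113 to 311 (1.45), opposite to the brighter one at 500 and 447, so the direction of Iars2 was not settled either.

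Both sets of synthetases were then placed beside each other for the same amino acid. A pair above the floor was available for 15 of 16 amino acids with both genes in the list, and the cytosolic difference was the higher one in 13, with a median gap of 0.51. The widest gaps were for alanine (1.78), cysteine (1.22), leucine (1.09), valine (1.07) and proline (0.88, Eprs against Pars2). The alanine gap rests on Aars2, close to the floor, and the cysteine gap on the brightest Cars2 probe set, where the second gave -0.07. In 8 pairs the cytosolic gene was higher and the mitochondrial gene lower in Columnar/Hypertrophic. Among them were isoleucine and valine, where the sign of Iars2 and of Vars2 changed with the probe set. With both arrays scaled to equal medians, 5 pairs of a higher cytosolic and a lower mitochondrial gene were left. Tyrosine and phenylalanine had gaps of -0.01, and serine one of 0.01, so there both genes had nearly the same difference. The technical spread of a gap, from the spread of single probe sets, was 0.52. Of the 15 gaps, 8 were over 0.5, and the asparagine gap among them (0.505) lay under that spread.

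**Figure D3:**
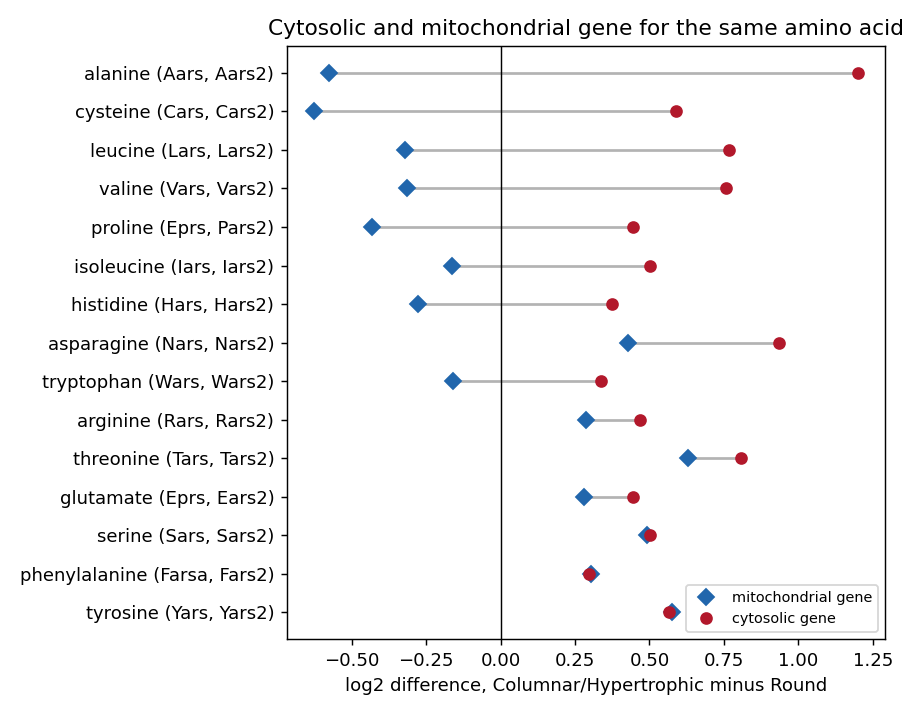
Log2 difference (Columnar/Hypertrophic minus Round, horizontal) of the cytosolic gene (circles) and the mitochondrial gene (diamonds) for each of 15 amino acids, ordered by the gap between them, 1 array per group. The gap is widest for alanine (1.20 against -0.58) and close to 0 for serine, phenylalanine and tyrosine.

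Each class was set beside all genes of like signal. Among the 7076 genes whose mean signal lay in the range of the cytosolic members, the median difference was -0.01, 49.0% lay above 0 and 12.3% were at least 1.5-fold higher. Among the 6162 genes in the range of the mitochondrial members, the median was -0.11, 41.7% lay above 0 and 13.4% were at least 1.5-fold higher. Centring on a lowess trend over signal left the cytosolic median at 0.46 and moved the mitochondrial one to -0.052. When both arrays were instead scaled to equal medians, the median of all genes moved up by 0.26, and the cytosolic and mitochondrial medians then lay at 0.57 and -0.09 relative to that of all genes. Under that scaling 100% of the cytosolic and 66.7% of the mitochondrial members lay above 0, against 94.7% and 46.7% with the deposited scaling.

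**Figure D4:**
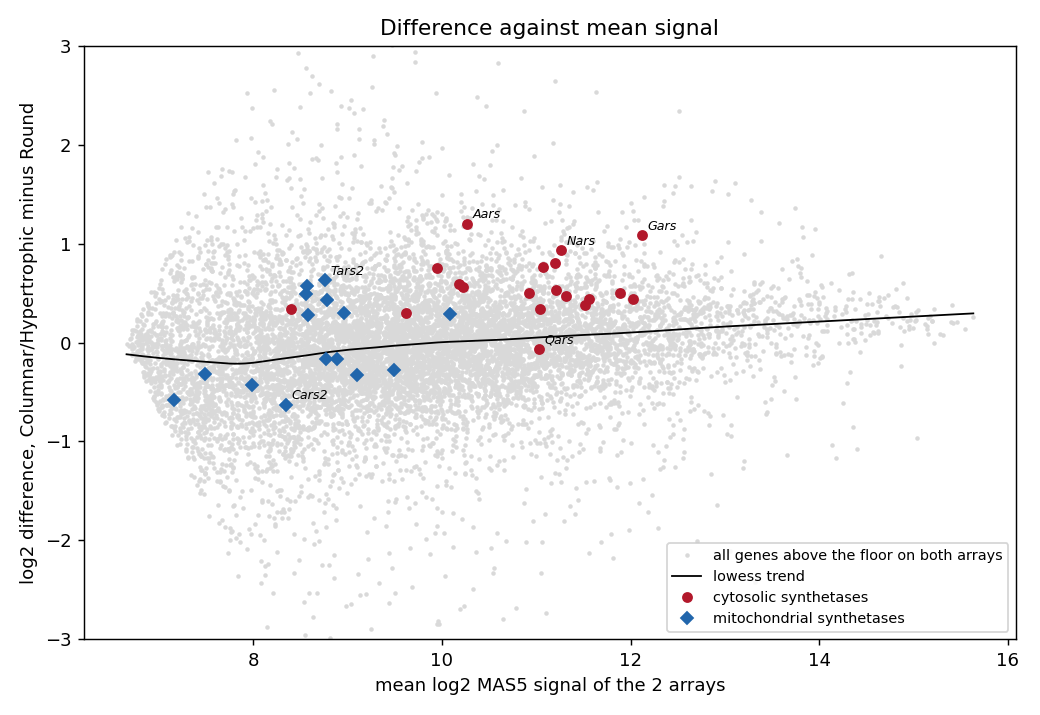
Log2 difference (Columnar/Hypertrophic minus Round, vertical) against the mean log2 signal of both arrays (horizontal) for genes above the floor on both, with the lowess trend as a line and 39 of 10235 genes outside the plotted range. Cytosolic synthetases (circles) lie above the trend except Qars, and mitochondrial synthetases (diamonds) lie on both sides of it.

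Within the cytosolic set, the 12 genes known as ATF4-linked (Aars, Cars, Eprs, Gars, Iars, Lars, Mars, Nars, Sars, Tars, Wars and Yars) had a median of 0.58, with 12 of 12 above 0 and 6 at least 1.5-fold higher. The other 7 measured cytosolic genes had a median of 0.38, with 6 above 0. Vars alone of them was at least 1.5-fold higher (14.3%), where 11.7% of all genes were. The lists were chosen with earlier results of these data known, so this split is a description only. A role of ATF4 was not tested. The 7 measured enzymes of the multisynthetase complex had a median of 0.47 and the 12 others 0.58. Class I and class II enzymes, which differ in the fold of the catalytic domain, had medians of 0.53 and 0.50 in the cytosol (9 genes each, Eprs left out because it holds both). In the mitochondria they were -0.16 (8 genes, 3 above 0) and 0.30 (7 genes, 4 above 0). The means there were closer, at -0.06 and 0.08.

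The promoter windows of the members were read for the C/EBP-ATF response element, a sequence bound by ATF4 with C/EBP partners, since most cytosolic members were higher in Columnar/Hypertrophic. The letters searched were TGATGNAA on either strand, in the 250 bases before and 50 after a start site from RefSeq (GRCm38.p6). Of 32851 windows, 1304 (3.97%) held a match, and of 9495 array genes above the floor with a window, 241 (2.54%) did. A window was present for 25 of the 34 members. Cars, Hars, Lars, Nars, Rars, Vars, Wars, Hars2 and Pars2 had none.

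Of 12 cytosolic genes with a window, 5 held a match (Aars, Gars, Iars, Tars and Yars), and of 13 mitochondrial genes 0 did. All 5 belong to the ATF4-linked genes, of which 8 had a window. The difference of these 5 genes had a median of 0.81 (range 0.50 to 1.20). That of the 7 cytosolic genes with a window and no match had a median of 0.44 (range -0.06 to 0.53). Cytosolic genes without a window are in neither group, and their differences ran from 0.34 (Wars) to 0.93 (Nars). Whether they hold a match is not known, so a link between a match and the size of the difference was not tested. The share was 26.7% for 15 ATF4-linked marker genes (Trib3, Chac1, Asns and Nupr1), 0 of 67 mitochondrial ribosomal protein genes and 3.30% of 394 genes past 2-fold on the higher side. A match is a run of letters in a window, and binding was not measured.

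The sequences of the 4 matched members with the largest differences are shown to let the matches be compared, each 5′ to 3′ on the strand of the gene with the match in capitals. Aars had matches at position -112 from the start site and at 10 within the transcript, Gars at -30, Tars at -15 and Yars at 4. The upstream piece of Aars is chr8:111033592-111033841 on the plus strand and its second site lies in chr8:111033841-111033868. That of Gars is chr6:55037751-55038000 on the plus strand, that of Tars chr15:11399659-11399908 on the minus strand, and the Yars site lies in chr4:129189896-129189923 on the plus strand. Iars had a match at 8. Only Yars held the motif in the orientation of the gene, and Aars, Gars, Tars and Iars held it on the opposite strand.
Aars upstream: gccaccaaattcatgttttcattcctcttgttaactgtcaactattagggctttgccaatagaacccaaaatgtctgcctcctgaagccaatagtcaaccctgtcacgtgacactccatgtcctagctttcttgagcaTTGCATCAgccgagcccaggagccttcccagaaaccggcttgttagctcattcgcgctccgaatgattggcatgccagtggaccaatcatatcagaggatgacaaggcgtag
Aars second site: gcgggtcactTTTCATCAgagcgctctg
Gars upstream: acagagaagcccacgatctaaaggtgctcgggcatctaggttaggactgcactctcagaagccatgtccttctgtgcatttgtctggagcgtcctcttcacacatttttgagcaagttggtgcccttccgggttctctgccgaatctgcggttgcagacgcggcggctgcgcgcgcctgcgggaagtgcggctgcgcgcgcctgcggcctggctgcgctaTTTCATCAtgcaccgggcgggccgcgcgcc
Tars upstream: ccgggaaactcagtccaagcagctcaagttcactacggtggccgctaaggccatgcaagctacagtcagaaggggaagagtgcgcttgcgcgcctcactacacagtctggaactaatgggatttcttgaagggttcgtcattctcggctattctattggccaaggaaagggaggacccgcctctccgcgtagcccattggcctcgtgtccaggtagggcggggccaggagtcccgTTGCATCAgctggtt
Yars site: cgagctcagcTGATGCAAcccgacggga

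Partners of the synthetases were measured next. Of 12 tRNA charging partners, 7 lay above 0 with a median of 0.34. Over 2-fold higher was 1 of them (8.33%), against 4.31% of all genes. This was Eef1e1, a scaffold of the multisynthetase complex, which went from 1616 to 4223 (2.61-fold). The other scaffold genes differed from it, with Aimp2 at 0.46 (1670 and 2289) and Aimp1 at -0.02 (1670 and 1646). Xpot, the exporter of tRNA from the nucleus, went from 3420 to 5159 (0.59), and 2 other probe sets gave up to 0.80. Qrsl1, a subunit of the mitochondrial amidotransferase that completes glutamine tRNA after Ears2 has charged it with glutamate, went from 638 to 1125 (0.82). The genes of the other subunits, Gatb and Gatc, differed by -0.36 and -0.17, both within the technical SD. Gatb was dim, at 173 and 135, and its other probe set gave -0.13.

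Other gene lists of protein synthesis gave the setting for both classes. The 76 mitochondrial ribosomal protein genes had a median of 0.33, with 62 above 0. At least 2-fold higher were 2 of them (2.63%, against 4.31% of all genes), and 0 were lower by that much (6.37% of all genes). The 8 measured mitochondrial translation factor genes had a median of 0.35, with Mrrf, the ribosome recycling factor, at 0.77 and Tufm, the elongation factor, at 0.61 (but -0.42 by another probe set). Both medians lay above the -0.16 of the mitochondrial synthetases. The sign of that -0.16 changed with the scaling or the choice of probe set, and these lists were not matched for signal. The 11 cytosolic translation factor genes had a median of 0.47, close to the 0.50 of the cytosolic synthetases, with 11 of 11 above 0. The 46 measured cytosolic ribosomal protein genes had a lower median of 0.22, with 43 above 0. At least 1.5-fold higher were 4 of them (8.70%), against 11.7% of all genes. The ATF4-linked markers, which hold stress-related genes such as Chac1 beside genes of amino acid supply, had the highest median of these lists. Past 2-fold were 9 of 17 (52.9%), against 4.31% of all genes. These were Chac1, Psat1, Slc7a5, Mthfd2, Sesn2, Psph, Asns, Phgdh and Slc7a1. A second probe set of Sesn2 gave -0.69, so its direction was not settled, and Cth, of cysteine synthesis, was lower at -0.48. Atf4, Ddit3 and Trib3, also in this list, were under 2-fold at 0.48, 0.59 and 0.67. Their other probe sets gave 0.21, 0.11 and -0.06. Among the 9 were Asns, which makes asparagine (2045 to 5119), and Psph, of serine synthesis (398 to 1001), while Nars and Sars, the synthetases that use these amino acids, differed by 0.93 and 0.50.

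**Figure D5:**
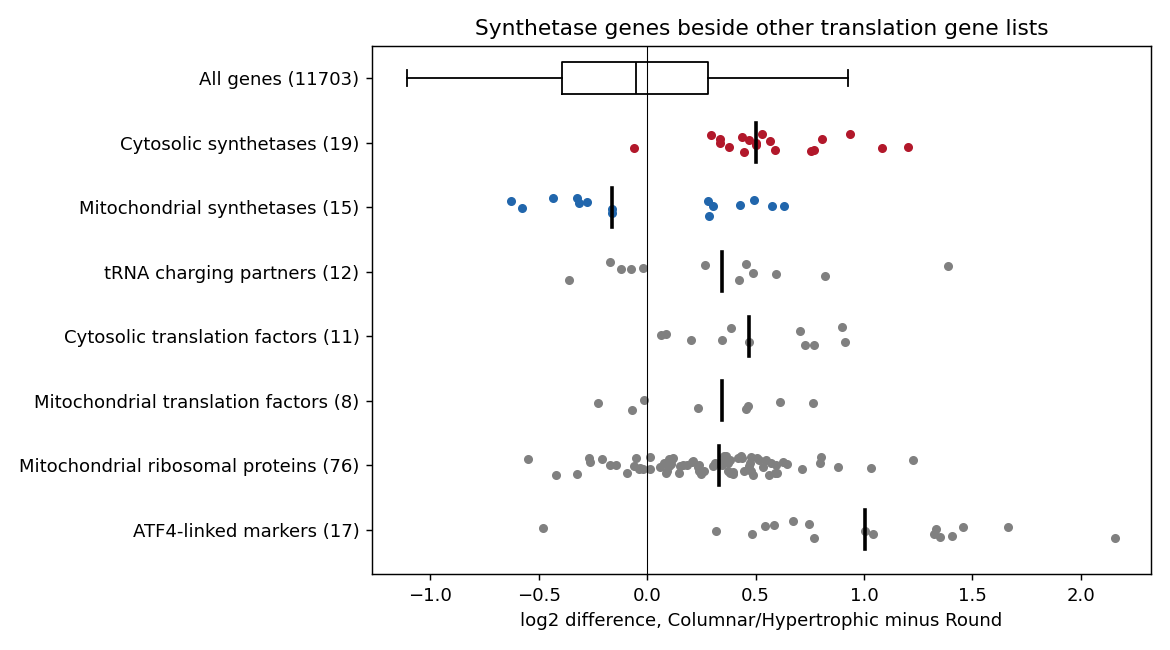
Log2 difference (Columnar/Hypertrophic minus Round, horizontal) of measured genes in each list, 1 point per gene, with the number of genes in brackets and black bars for medians; all 11703 genes are a box of quartiles with whiskers at the 5th and 95th percentiles (-1.11 and 0.93). The cytosolic synthetases (median 0.50) lie beside the cytosolic translation factors (0.47), and the mitochondrial synthetases (-0.16) have a lower median than the mitochondrial ribosomal proteins (0.33).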

How the data were processed

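The 2 samples were measured on Affymetrix whole-genome mouse arrays with biotin-labelled cRNA. The values deposited by the authors are linear intensities, 45101 per array. MAS5 is the tool in the submitters' processing notes (its version is not given in the sources used here). Its scaling sets the trimmed mean of every array to the same value, here 500.0 when 2% is trimmed at each end, and so assumes equal total signal. The methods of the study name RMA, which gives log values, so the linear values were read as MAS5 signals. Gene names came from the platform annotation, and the 932 with several symbols were not used. Symbols Aars to Yars were also accepted with a trailing 1, as the file gives for Mars.

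Signals under the floor (the 95th percentile of 87 chemosensory receptor probe sets) were raised to it and log2 values taken. Each gene was represented by its brightest probe set by mean log2 signal. No test was run, since each group was 1 array, and genes were counted at 2-fold and 1.5-fold. The code for differences and fold counts was checked on simulated signals with known changes. Python 3.11.15, pandas 2.3.3 and statsmodels 0.14.6 were used. Every member with a probe set was described, and genes of other lists could be named where past 2-fold or among the 4 largest differences. Outside this rule, some were chosen after their values were seen: Scx, Csf1r, Ctsk, Ptprc, Acp5, Sp7, Aimp1, Aimp2, Gatb, Gatc and Tufm. So were Atf4, Ddit3, Trib3, Nupr1, Cth and those of the additional observations. The members and lists were chosen with earlier results of these data known. Alternatives were other scalings (equal medians, quantile, lowess with span 0.3), other floors, a pseudocount of 100, other choices of probe set and a filter on dim genes.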

Additional observations from a re-analysis of the deposited data

How the results depend on the processing

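Scaling to equal medians gave 6 members past 2-fold on the higher side. At 1.5-fold, 17 cytosolic and 4 mitochondrial members were higher and 0 lower, with medians of 0.78 for the cytosolic and 0.12 for the mitochondrial genes, the latter turned in sign, and 5 amino acid pairs in which the cytosolic gene was higher and the mitochondrial gene lower. This pair count was chosen after seeing the data and was 6 to 8 under the other alternatives. Quantile normalization and lowess centring each left 1 member (Aars) past 2-fold, with 3 mitochondrial members higher and 0 members lower by 1.5-fold. The mitochondrial median was then -0.050 and -0.052, and the gap between both medians 0.53 and 0.51. With a pseudocount of 100, 0 mitochondrial members were at least 1.5-fold higher and 0 members at least 1.5-fold lower. With the mean of all probe sets of a gene these numbers were 2 and 0, with the second brightest probe set 2 and 0, and without probe sets of the _s_at, _x_at and _a_at kinds 0 and 2. The second brightest probe sets also turned the mitochondrial median to 0.035 and narrowed the gap to 0.52. The cause of these changes was not tested beyond the construction of each alternative.

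The cytosolic median stayed between 0.46 and 0.78 and the gap between 0.51 and 0.75 under all 11 alternatives. Of 110 summary values, 83 moved little. For medians and gaps this meant less than the technical SD over the square root of the number of genes, and for counts at most 1.5 times. Many of the 83 were fixed in advance. All 34 measured members lay above the floor on both arrays, so a lower floor, no floor or the filter on dim genes could not move them. The floor at the 99th percentile changed Aars2 alone. The cytosolic difference was the higher one in 10 of 15 amino acid pairs with lowess centring. Of the single genes, 16 of 19 cytosolic members had a lowest difference above 0.25 over the alternatives. The mitochondrial median had no settled sign. No paired analysis was possible because each group was 1 array, and no array could be left out. Dim signals limit the mitochondrial genes most, since Aars2, Vars2 and Pars2 lay within 3-fold of the floor on both arrays.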

Other observations

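Cytosolic translation factors, named here after their values were seen, were higher in Columnar/Hypertrophic, as most cytosolic synthetases were. Eif4e, which binds the mRNA cap, went from 2816 to 5294 (0.91), and its 3 probe sets gave 0.64 or more. Eif2s2, encoding the beta subunit of eIF2, went from 6905 to 12856 (0.90), with its probe sets between 0.23 and 1.33. The helicase gene Eif4a1 differed by 0.77 and Eif5a by 0.70, and each was higher by every probe set above the floor. Etf1 differed by 0.73, but its probe sets ran from -0.39 to 0.97. Those of Eef1d, at 0.35 by the brightest, ran from -0.17 to 0.41. Lower in the list were the initiation factor gene Eif5 at 0.07, although its other probe sets reached 1.06, and the elongation factor genes, with Eef1a1 at 0.20, Eef1b2 at 0.09 and Eef2 at 0.39.

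A probe set that names both Aars and Exosc6 was not used for either gene. Its signals were 308 in Round and 686 in Columnar/Hypertrophic, a difference of 1.16.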
